A study of Mus musculus with 36 samples.

Results

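The skeletal muscle transcripts are 39 genes that encode the contractile, calcium-handling, scaffold and energy proteins of striated muscle, and they were measured in macrophages recovered from mouse lungs by lavage. The genes were given as a list of names. Each was read from the array feature that carries its symbol and no other, and from the feature of highest mean over all arrays where several did. All 39 genes had such a feature, among 28940 features analysed. A feature is a transcript cluster, the unit for which the array gives 1 value.

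The study asked how the lung and its macrophages respond, from birth on, to a dehydrated airway surface. The Scnn1b-Tg mice (Tg) carry a transgene for Scnn1b, a subunit of an epithelial channel that takes up sodium, under the Scgb1a1 promoter, which is active in the club cells of the airway epithelium and not in macrophages. Their wild-type littermates (WT) carry no transgene, and both are on the strain C57Bl/6N Tac. Cells were taken on postnatal day (PND) 0, 3, 10 or 42 from animals kept specific-pathogen-free (SPF), and on day 42 also from germ-free (GF) animals. For each genotype there were 3 arrays of PND 0, then 4 of each later SPF age and 3 of the GF animals, which gives 36 arrays in 10 groups. Arrays of PND 0, 3 and 10 each held cells pooled from 3 pups, called a pool here, and arrays of PND 42 held cells of a single mouse. Cells bearing Ly-6G were depleted on a magnetic column before RNA extraction, a step directed at neutrophils.

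Skeletal muscle contracts when calcium, released from the sarcoplasmic reticulum, binds troponin on the thin (actin) filament and lets myosin heads pull on it. Most of these proteins come in isoforms, so that a transcript can mark fast fibres, slow fibres or the immature fibres of the perinatal period. Newborn muscle still uses the embryonic and perinatal myosins, and it expresses the cardiac actin gene beside the skeletal one. These genes are known from striated muscle, not from macrophages. The list was divided into 14 fast-fibre genes, 3 slow-fibre genes, 3 genes shared with heart, 2 developmental myosins and 17 genes not assigned to a single fibre type. The 3 genes shared with heart are Tnnc1, Actc1 and Actn2, and not all of them are particular to slow fibres. In the plots they are labelled slow fibre and heart, and the 17 are labelled both fibre types. The 17 need not be even between fibre types.

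Macrophage genes were bright on every array, and Scnn1b followed the genotype label in Tg pools 1 and 2 of PND 0 but not in Tg pool 3. Over the 36 arrays Cd68 lay between 10.97 and 11.93 and Lyz2 between 11.18 and 12.11, on the log2 scale of the deposited values. Airway genes were bright as well at PND 0. Scgb1a1, whose promoter drives the transgene, had 12.09, 11.96 and 11.71 in Tg pools of PND 0, against 11.37, 11.59 and 11.96 in WT pools. The mean over 12 genes of airway and alveolar epithelium was 9.52, 9.54 and 9.05 in Tg pools and 8.62, 9.19 and 9.58 in WT pools. Transcripts of epithelium were thus present in pools of both genotypes. Scnn1b had 10.23, 10.33 and 5.47 in the 3 Tg pools of PND 0, against 4.06, 5.27 and 6.68 in the 3 WT pools, so that Tg pool 3 lay within the WT values. Xist, which is expressed from the inactive X chromosome of females, had 3.10, 3.35 and 9.50 in Tg pools 1, 2 and 3, against 3.31, 3.05 and 9.78 in WT pools 1, 2 and 3, although the methods describe male mice. The pools are called Tg and WT here by their labels, and the main counts at PND 0 are given also without pool 3.

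At PND 0 the muscle transcripts were higher in Tg pools, and at no later age did any of them pass the test between genotypes. Of the 39 genes, 29 were higher in Tg than in WT pools and 0 were lower at an adjusted p under 0.05 (limma, Benjamini-Hochberg over all features). Over all 28940 features, 2.74% were called higher and 1.59% lower. The median difference, Tg minus WT, was 1.20 on the log2 scale over the 39 genes and -0.02 over all features, and 38 of the 39 differences lay above 0. In 26 genes every Tg pool lay above every WT pool, which held for 4.21% of all features. RNA of a whole cell preparation was measured, so that fewer cells of a type and less RNA per cell cannot be told apart.

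The limits of these calls lie in the number of pools. With 3 pools against 3 an exact permutation test cannot give a two-sided p below 0.1, and the calls rest on a spread estimated over all 36 arrays. The SE of each difference rests on it too. The SD of Car3 was 3.14 in Tg pools of PND 0, against 0.14 in Tg and 0.11 in WT pools of PND 3. For such genes the SE and adjusted p understate the spread among Tg pools of PND 0. That did not hold for every gene, and Myh4 had an SD of 0.05 there, against 0.14 and 0.15 at PND 3. With the 6 arrays of PND 0 fitted alone, 0 of all features passed, while 28 of the 39 genes and 1679 of all features had an unadjusted p under 0.05. Without Tg pool 3, 33 of the 39 genes were called higher, and without pool 3 of both genotypes 34 were. Over all features the share called in either direction rose as well, from 4.33% with all arrays to 9.99% without pool 3 of both genotypes. The count without Tg pool 3 alone is given without such a share.

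**Figure D1:**
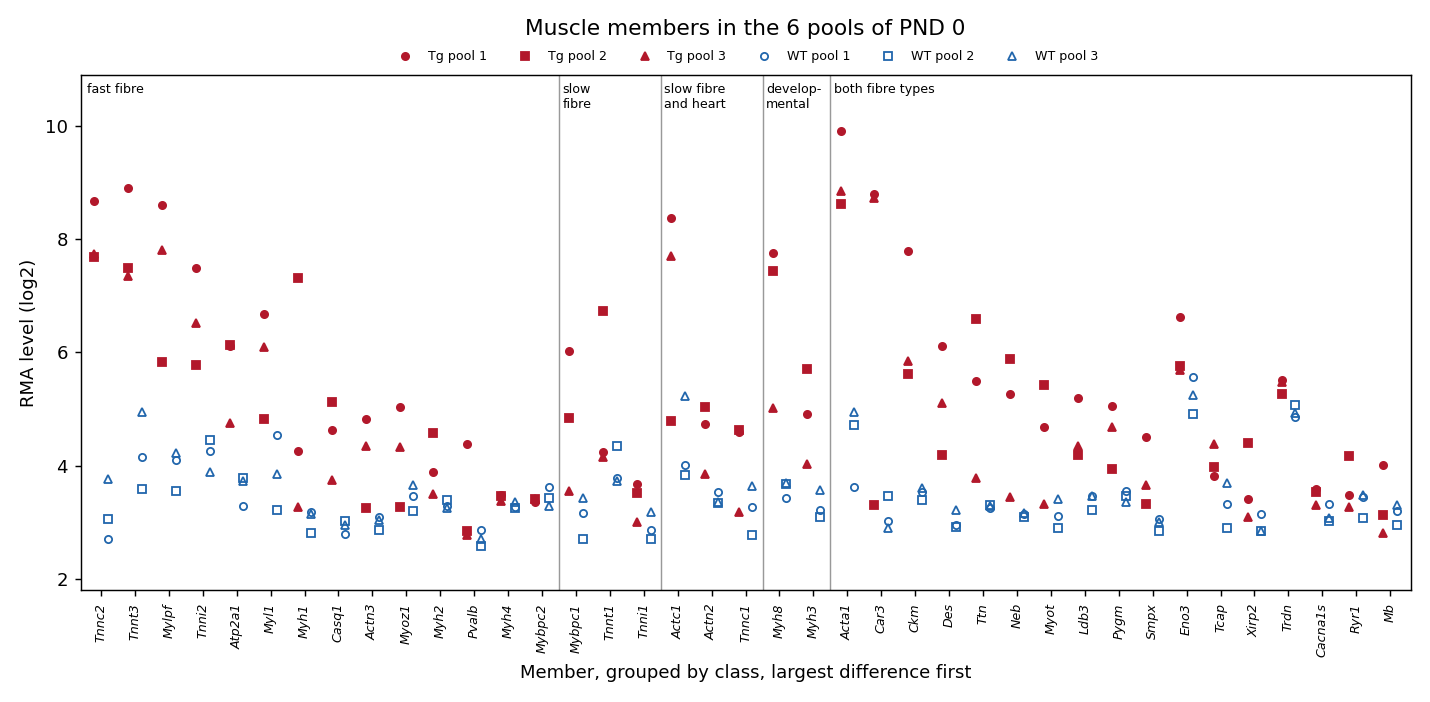
RMA level (log2) of each of the 39 genes in the 6 pools of PND 0, with filled red symbols for Tg and open blue symbols for WT, and circle, square and triangle for pools 1, 2 and 3. Tnnc2 and Acta1 stand far above WT in all 3 Tg pools, whereas Car3 and Myh1 are spread over several log2 units among the Tg pools.

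The largest measured differences were those of thin-filament genes, Tnnc2 and Acta1. Acta1, the skeletal alpha-actin, had 9.90, 8.62 and 8.85 in the 3 Tg pools, against 3.62, 4.72 and 4.95 in the WT pools. The groups did not come near each other, and the difference was 4.70 ± 0.24 (SE, adjusted p = 3.51e-14). Tnnc2, the calcium-binding troponin subunit of fast fibres, had 8.67, 7.68 and 7.74 in Tg pools and 2.71, 3.06 and 3.76 in WT pools. The measured difference was 4.85 ± 0.20 (adjusted p = 1.78e-16). Its WT values lie at or under the array medians (3.72 to 4.06), where a level cannot be told from background, so that no fold is given here or for other genes with such WT values, and which of these thin-filament genes differed more cannot be read from these values. Tnnt3, which ties fast troponin to tropomyosin, had 8.90, 7.50 and 7.35 in Tg pools and 4.16, 3.60 and 4.94 in WT pools, with a difference of 3.68 ± 0.28 (adjusted p = 4.47e-10). Tnni2, the inhibitory subunit of fast troponin, had 7.50, 5.78 and 6.52 in Tg pools and 4.26, 4.45 and 3.89 in WT pools, with a difference of 2.40 ± 0.27 (adjusted p = 1.25e-06). All 4 thin-filament genes were thus above WT in every Tg pool.

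Actc1, the cardiac alpha-actin that immature skeletal fibres also use, was less even. It had 8.38, 4.80 and 7.70 in Tg pools, against 4.01, 3.83 and 5.23 in WT pools. Tg pool 2 lay below WT pool 3, so that the groups overlapped, and the difference was 2.60 ± 0.46 (adjusted p = 0.000839). Tnnc1, the troponin C of slow fibres and heart, had 4.60, 4.63 and 3.18 in Tg pools and 3.28, 2.78 and 3.64 in WT pools. Its difference of 0.91 ± 0.22 passed the test (adjusted p = 0.0166) although Tg pool 3 lay within the WT range. The call was lost without Tg pool 1 (0.67, adjusted p = 0.165), without Tg pool 2 (0.66, adjusted p = 0.0893) and without WT pool 2 (0.68, adjusted p = 0.102), and the difference was 1.38 without Tg pool 3 and 1.58 without both pools 3.

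Tnnt1 and Tnni1, the troponin genes of the slow-fibre class, did not pass, whereas Tnnc1, shared with heart, did with all pools. Tnnt1 had 4.24, 6.73 and 4.15 in Tg pools and 3.78, 4.35 and 3.74 in WT pools, with a difference of 1.09 ± 0.36 (adjusted p = 0.0805). Only Tg pool 2 stood above the WT pools. Tnni1 had 3.68, 3.52 and 3.00 in Tg pools and 2.87, 2.71 and 3.19 in WT pools, with a difference of 0.48 ± 0.16 (adjusted p = 0.0970).

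Both developmental myosin heavy chains were higher in Tg pools. Myh8, the perinatal myosin, had 7.76, 7.44 and 5.03 in Tg pools, against 3.44, 3.68 and 3.69 in WT pools, and the difference was 3.14 ± 0.34 (adjusted p = 5.07e-07). Myh3, the embryonic myosin, had 4.92, 5.71 and 4.03 in Tg pools and 3.21, 3.10 and 3.57 in WT pools, with a difference of 1.59 ± 0.22 (adjusted p = 3.29e-05). Every Tg pool was above every WT pool for both genes.

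The adult fast myosins differed from pool to pool. Myh1, the IIx myosin, had 4.26, 7.32 and 3.28 in Tg pools and 3.19, 2.81 and 3.15 in WT pools. Its difference was 1.90 ± 0.46 (adjusted p = 0.0150), and 0.71 (adjusted p = 0.00883) when Tg pool 2 was left out. Myh2, the IIa myosin, had 3.90, 4.59 and 3.50 in Tg pools and 3.29, 3.39 and 3.26 in WT pools, with a difference of 0.68 ± 0.16 (adjusted p = 0.00922) that did not pass without Tg pool 2 (0.39, adjusted p = 0.0621). Myh4, the IIb myosin of the fastest fibres, lay between 3.39 and 3.49 in Tg pools and between 3.26 and 3.36 in WT pools, and its difference of 0.15 ± 0.14 did not pass (adjusted p = 0.669). Myh1, Myh2, Myh3, Myh4 and Myh8 lie side by side on chromosome 11 and encode closely similar proteins. Probe sequences were not used here, so that cross-hybridization among them was not tested.

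Of the myosin light chains, Mylpf, the regulatory light chain of fast fibres, had 8.60, 5.83 and 7.81 in Tg pools and 4.10, 3.56 and 4.23 in WT pools (difference 3.45 ± 0.35, adjusted p = 1.69e-07). Myl1, the fast essential light chain, had 6.67, 4.83 and 6.10 in Tg pools and 4.55, 3.21 and 3.86 in WT pools (1.99 ± 0.33, adjusted p = 0.000475). Both were lowest in Tg pool 2, the pool in which Myh1 was highest. Of the myosin-binding proteins, Mybpc1 of slow fibres had 6.03, 4.84 and 3.55 in Tg pools and 3.16, 2.72 and 3.43 in WT pools. Its difference of 1.71 ± 0.30 (adjusted p = 0.000775) was 1.10 (adjusted p = 0.00683) without Tg pool 1. Mybpc2 of fast fibres had 3.37, 3.41 and 3.42 in Tg pools and 3.63, 3.43 and 3.30 in WT pools, and it was the gene with a difference below 0 (-0.06 ± 0.14, adjusted p = 0.911).

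The titin and nebulin genes, which encode the giant proteins that set the length and elasticity of the sarcomere, were highest in Tg pool 2 on the features used. Ttn had 5.50, 6.60 and 3.78 in Tg pools, against 3.26, 3.31 and 3.29 in WT pools (2.01 ± 0.31, adjusted p = 0.000168). On a second Ttn feature the order of the pools was another, with 6.22, 4.39 and 4.48 in Tg pools and 3.24, 2.87 and 3.27 in WT pools, so that the pool in which Ttn peaked depends on the feature. Neb had 5.26, 5.88 and 3.45 in Tg pools and 3.15, 3.09 and 3.18 in WT pools (1.73 ± 0.29, adjusted p = 0.00043). The Z-disc anchors Actn2, Actn3, Ldb3 and Myot also rose, by 1.12, 1.13, 1.20 and 1.34. Des, the muscle intermediate filament, had 6.11, 4.20 and 5.11 in Tg pools and 2.95, 2.92 and 3.23 in WT pools (2.11 ± 0.23, adjusted p = 8.59e-07).

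Several scaffold genes passed narrowly or not at all. Without Tg pool 2 the difference of Myot, a Z-disc protein, was 0.86, and without both pools 3 it was 2.05, and it passed in both settings. Tcap, the titin cap, rose by 0.75 ± 0.20 (adjusted p = 0.0279), but the call was lost without Tg pool 3 (adjusted p = 0.132), without WT pool 1 (adjusted p = 0.0668) and without WT pool 2 (adjusted p = 0.154). Xirp2, an actin-binding repeat protein, rose by 0.68 ± 0.19 (adjusted p = 0.0358). It did not pass without Tg pool 2 (0.30, adjusted p = 0.266), WT pool 2 (adjusted p = 0.0932) or WT pool 3 (adjusted p = 0.0636). Smpx, a small muscle protein, rose by 0.86 ± 0.19 (adjusted p = 0.00755) and did not pass without Tg pool 1 (0.52, adjusted p = 0.112). Myoz1, which binds calcineurin at the Z-disc, had 5.04, 3.28 and 4.33 in Tg pools and 3.46, 3.20 and 3.66 in WT pools. Its difference of 0.78 ± 0.24 missed the limit (adjusted p = 0.0565), was 0.36 without Tg pool 1 and 1.25 without Tg pool 2, and passed in 3 of 21 alternatives.

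Genes of calcium release and uptake were divided. Atp2a1, the calcium pump of fast sarcoplasmic reticulum, had 6.11, 6.14 and 4.76 in Tg pools, against 3.30, 3.79 and 3.73 in WT pools (2.07 ± 0.22, adjusted p = 5.07e-07). Casq1, the calcium-storing protein of the same compartment, had 4.63, 5.13 and 3.74 in Tg pools and 2.80, 3.02 and 2.96 in WT pools (1.58 ± 0.20, adjusted p = 1.27e-05). Both were above WT in every Tg pool. Cacna1s, the voltage sensor of the transverse tubule, differed by 0.34 ± 0.09 (adjusted p = 0.0291), and the call was lost without Tg pool 1 (adjusted p = 0.177), Tg pool 2 (adjusted p = 0.0708), WT pool 2 (adjusted p = 0.120) or WT pool 3 (adjusted p = 0.0596). Ryr1, the calcium release channel, had 3.49, 4.18 and 3.28 in Tg pools and 3.45, 3.09 and 3.48 in WT pools, a difference of 0.31 ± 0.14 (adjusted p = 0.238). Pvalb, a calcium buffer of fast fibres, had 4.38, 2.84 and 2.78 in Tg pools and 2.88, 2.58 and 2.72 in WT pools (0.61 ± 0.21, adjusted p = 0.102). Trdn, which couples the release channel to calsequestrin, differed by 0.46 ± 0.14 (adjusted p = 0.0634), and none of its 18 other features passed.

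Among the metabolic genes, Ckm, the muscle creatine kinase that buffers ATP, had 7.80, 5.63 and 5.85 in Tg pools, against 3.53, 3.40 and 3.62 in WT pools (2.91 ± 0.29, adjusted p = 1.54e-07). Pygm, the muscle glycogen phosphorylase, had 5.06, 3.94 and 4.69 in Tg pools and 3.55, 3.46 and 3.36 in WT pools (1.11 ± 0.18, adjusted p = 0.000337). Car3, a carbonic anhydrase of muscle that adipocytes also make in quantity, had 8.79, 3.31 and 8.72 in Tg pools and 3.02, 3.47 and 2.90 in WT pools. It was the most uneven of the 39 genes, bright in Tg pools 1 and 3 and within the WT range in Tg pool 2, and its difference of 3.81 carried an SE of 0.68 (adjusted p = 0.000983). Eno3, the muscle enolase, had 6.63, 5.77 and 5.69 in Tg pools and 5.57, 4.91 and 5.24 in WT pools. Its difference of 0.79 ± 0.24 (adjusted p = 0.0620) was 0.49 without Tg pool 1, and it passed in 5 of 22 alternatives. Mb, the oxygen store myoglobin, had 4.01, 3.13 and 2.81 in Tg pools and 3.20, 2.96 and 3.31 in WT pools (0.16 ± 0.20, adjusted p = 0.774).

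Promoter sequences are shown for 5 of the genes that were higher at PND 0, so that the start regions of genes that were higher together can be compared. They are Acta1, Actc1, Ckm, Mylpf and Myh8, from RefSeq (GRCm38.p6), each running 5′ to 3′ on the gene's strand from 250 bases before to 50 bases after its annotated start, and 30 of the 39 genes had an entry. Capitals mark matches on either strand to the E-box CAGCTG, the muscle CAT sequence CATTCCT, the TATA motif TATAAA, the CArG box bound by serum response factor and the MEF2 site. In Myh8 the TATAAA match, on the reverse strand, lies inside the MEF2 site. The windows are Acta1 at chr8:123894726-123895025 (minus strand), Actc1 at chr2:114052826-114053125 (minus), Ckm at chr7:19410844-19411143 (plus), Mylpf at chr7:127211358-127211657 (plus) and Myh8 at chr11:67276874-67277173 (plus).
Acta1: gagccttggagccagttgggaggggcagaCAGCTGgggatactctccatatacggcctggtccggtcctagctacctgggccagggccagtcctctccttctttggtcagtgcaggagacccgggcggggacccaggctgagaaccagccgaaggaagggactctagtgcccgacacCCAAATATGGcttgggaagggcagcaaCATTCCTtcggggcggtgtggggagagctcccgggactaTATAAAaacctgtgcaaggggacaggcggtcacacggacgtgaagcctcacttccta
Actc1: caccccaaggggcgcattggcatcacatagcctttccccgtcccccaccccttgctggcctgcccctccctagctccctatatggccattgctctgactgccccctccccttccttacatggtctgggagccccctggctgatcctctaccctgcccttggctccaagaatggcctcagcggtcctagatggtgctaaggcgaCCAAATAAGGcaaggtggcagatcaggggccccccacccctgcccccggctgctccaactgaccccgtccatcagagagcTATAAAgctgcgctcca
Ckm: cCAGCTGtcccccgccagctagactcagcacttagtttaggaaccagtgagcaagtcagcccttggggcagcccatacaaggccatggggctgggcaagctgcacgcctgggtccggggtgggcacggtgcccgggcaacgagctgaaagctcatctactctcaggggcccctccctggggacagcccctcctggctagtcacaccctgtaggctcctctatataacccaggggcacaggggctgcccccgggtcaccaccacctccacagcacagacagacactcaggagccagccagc
Mylpf: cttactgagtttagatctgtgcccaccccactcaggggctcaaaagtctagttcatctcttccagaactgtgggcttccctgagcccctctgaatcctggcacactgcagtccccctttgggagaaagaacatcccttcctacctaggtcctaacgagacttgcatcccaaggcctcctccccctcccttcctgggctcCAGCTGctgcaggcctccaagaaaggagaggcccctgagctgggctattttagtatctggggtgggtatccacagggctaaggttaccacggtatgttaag
Myh8: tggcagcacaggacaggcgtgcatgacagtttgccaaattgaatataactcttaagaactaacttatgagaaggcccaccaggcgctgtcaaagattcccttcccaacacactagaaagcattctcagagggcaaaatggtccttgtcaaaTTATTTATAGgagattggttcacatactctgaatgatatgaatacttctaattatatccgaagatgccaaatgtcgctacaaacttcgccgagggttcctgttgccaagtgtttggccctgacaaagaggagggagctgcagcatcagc

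Acta1 held all 4 of the E-box, CAT sequence, TATAAA and CArG box, and Actc1 a CArG box 47 bases before its start. CAGCTG was found in 14 of the 30 promoters (46.7%), against 18.3% of the 27025 genes with a promoter entry. The CArG box was found in 4 (13.3%), against 1.81%, namely Acta1, Actc1, Myh4 and Ldb3. The MEF2 site was found in 6 (20%), against 3.7%, TATAAA in 9 (30%), against 15.7%, and CATTCCT in 3 (10%), against 6.15%. Any E-box, CANNTG, which includes CAGCTG, was found in 25 of the 30 (83.3%) and in 75% of all genes. Of the 22 genes with an entry that were called at PND 0, 10 held CAGCTG, and of the 8 that were not called, 4 did. These matches describe the letters of each window and were not tested.

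By class, 10 of the 14 fast-fibre genes were called higher, with a median difference of 1.74 on the log2 scale. Over all features 2.74% were called higher. The 2 developmental myosins had a median of 2.37 (2 called) and the 3 genes shared with heart 1.12 (3 called). The 17 genes not assigned to a single fibre type had 1.11 (13 called). Of the 3 slow-fibre genes 1 was called, and their median of 1.09 was 0.42 without Tg pool 2. These medians describe the lists and were not tested against each other.

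Levels themselves were mostly low outside Tg pools of PND 0. Array medians ran from 3.72 to 4.06, and the files give no detection call, so that a level at or under the median cannot be told from background here. In Tg mice at PND 0, 29 of the 39 genes had a group mean above 4.06, against 6 in WT mice at PND 0. Those 6 were Acta1, Actc1, Tnnt3, Tnni2, Trdn and Eno3. At later ages only Tnni2, Trdn and Eno3 had group means above that level in each of the 8 groups, and Tnnt1 in Tg mice of PND 10. Of the 3 genes, Trdn and Eno3 did not pass the test at PND 0, and Tnni2 is described below.

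The Tg pools differed from each other in which muscle genes were bright. Pool 1 was the highest of the 3 Tg pools in 24 of the 39 genes, pool 2 in 13 and pool 3 in 2, while 32.8%, 33.4% and 33.8% of all features were highest in pools 1, 2 and 3. Pool 3 was the lowest in 22 genes, pool 2 in 15 and pool 1 in 2. The mean over the 39 genes was 5.59, 5.004 and 4.70 in Tg pools 1, 2 and 3, against 3.48, 3.36 and 3.61 in WT pools. Tg pools 1, 2 and 3 were above every WT pool in 37, 33 and 29 of the 39 genes, which held for 23.3%, 19.7% and 21.4% of all features.

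The 13 genes that peaked in Tg pool 2 were Myh1, Myh2, Myh3, Tnnt1, Tnnc1, Ttn, Neb, Actn2, Myot, Xirp2, Casq1, Atp2a1 and Ryr1, with Ttn among them only on the feature used. Against pool 1, pool 2 was higher by 3.07 for Myh1, 2.49 for Tnnt1 and 1.10 for Ttn on that feature, and the difference was 0.03 for Atp2a1 and Tnnc1. In the opposite direction, pool 2 minus pool 1 was -5.48 for Car3, -3.58 for Actc1 and -2.76 for Mylpf. Each Tg pool is a single array, so that these differences between pools have no replicate.

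Markers of other tissues were higher in Tg pools too, but in pool 2 their list means lay near WT, unlike the mean of the muscle genes. Of 18 fibroblast genes (Mfap5, Postn and others), 12 were called higher in Tg at PND 0 (66.7%, against 2.74% of all features). The mean of the 18 was 7.38, 5.12 and 7.12 in Tg pools 1, 2 and 3, against 4.99, 5.55 and 5.15 in WT pools. Pool 2 was the lowest Tg pool in 17 of the 18 genes and above every WT pool in 3. Of 9 erythroid genes 6 were called higher (66.7%, against 2.74% of all features). The list mean was 6.87, 3.46 and 6.19 in Tg pools, against 3.55, 3.75 and 3.59 in WT pools. No erythroid gene (0 of 9) was above every WT pool in Tg pool 2.

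The list means of adipocyte and thyroid genes had the same order of pools, but not all of their single genes did. The mean over 11 adipocyte genes was 5.60, 4.12 and 5.03 in Tg pools, against 4.32, 4.36 and 4.10 in WT pools. Of these genes 3 were called higher (27.3%, against 2.74% of all features). Their median excess over the WT mean was 1.44, -0.10 and 0.08 in Tg pools 1, 2 and 3. Ucp1, the uncoupling protein of brown fat, had 8.99, 2.65 and 6.26 in Tg pools and 2.84, 3.00 and 2.92 in WT pools. The mean over 8 thyroid genes was 5.98, 3.36 and 4.01 in Tg pools and 3.29, 3.25 and 3.27 in WT pools. Of these 3 were called higher (37.5%, against 2.74% of all features). Tg pool 3 was the lowest Tg pool in 5 of the 8 and pool 2 in 3. In Tg pool 2, which is a single array, the means of these lists lay at or near the WT level, while 33 of the 39 muscle genes stood above every WT pool. The muscle genes were not uniform there, and 15 of the 39 were lowest in that Tg pool. What part the other tissues' cells have in the muscle result was not tested.

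**Figure D2:**
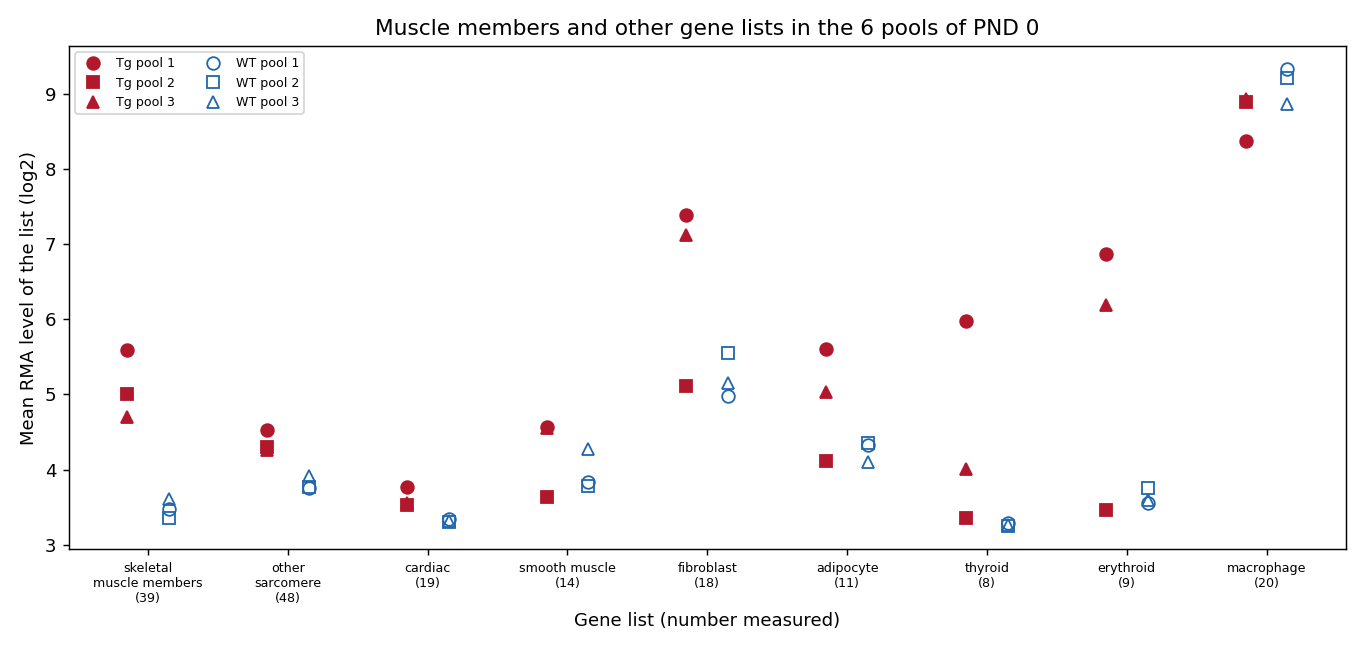
Mean RMA level (log2) of each gene list in the 6 pools of PND 0, with Tg (filled red) to the left of WT (open blue) and a symbol for each pool. The squares of Tg pool 2 lie at the WT level for the fibroblast, adipocyte, smooth muscle and erythroid lists, and above it for the muscle genes (5.004).

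Macrophage genes stood lower in Tg pools of PND 0. The mean over 20 macrophage genes was 8.37, 8.88 and 8.93 in Tg pools, against 9.33, 9.21 and 8.86 in WT pools, and Tg pool 1, which had the highest mean of the muscle genes, was the lowest Tg pool in 19 of the 20. Of these, 3 fell, where 1.59% of all features were called lower, and all 3 are known from alveolar macrophages. Siglecf fell by 0.79, Pparg fell by 0.72 and Mrc1 fell by 0.42 on the log2 scale. The others did not pass, and 0 of the 20 were called higher. The part of this shift in the muscle result was not tested.

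Some other striated muscle genes were higher too. Of 48 further sarcomere, membrane and metabolic genes of muscle, 14 were called higher (29.2%, against 2.74% of all features) and 0 lower. Their median difference was 0.24. At PND 42, 5 of the 48 were called higher in SPF housing (10.4%, against 2.72% of all features). In GF housing 3 were (6.25%, against 3.14%). Tpm2, the beta-tropomyosin, had 8.25, 6.92 and 6.78 in Tg pools, against 4.22, 4.70 and 4.75 in WT pools (2.76 ± 0.21, adjusted p = 3.41e-10). Myoz2, which anchors calcineurin at the Z-disc of slow fibres and heart, had 6.70, 5.64 and 6.11 in Tg pools and 3.62, 3.09 and 3.35 in WT pools (2.80 ± 0.18, adjusted p = 8.74e-12). Both genes were above WT in every Tg pool.

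Cox8b, a respiratory chain subunit of muscle and brown fat, had 8.45, 4.94 and 5.43 in Tg pools and 3.24, 3.05 and 2.76 in WT pools (3.26 ± 0.43, adjusted p = 2.23e-05). Cox6a2, the subunit of striated muscle, differed by 1.39 ± 0.34 (adjusted p = 0.0161). It was also called higher in Tg mice at PND 42, where 0 of the 39 genes were, by 1.46 in SPF housing (adjusted p = 0.00208) and by 2.04 in GF housing (adjusted p = 0.000205). Pgam2, the muscle phosphoglycerate mutase, differed by 1.38 ± 0.27 (adjusted p = 0.00256), and Fabp3, a fatty acid carrier of heart and muscle, by 1.95 ± 0.41 (adjusted p = 0.00463).

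Of 19 cardiac genes 5 were called higher (26.3%, against 2.74% of all features) and 0 lower, and those 5 were Myl4 (1.40), Csrp3 (1.18), Casq2 (0.81), Tnnt2 (0.67) and Myl2 (0.57), all of which are also expressed in developing or slow skeletal muscle. Among the genes that were not called, Nppa, the atrial natriuretic peptide, had 2.88, 2.60 and 2.85 in Tg pools and 2.59, 2.49 and 2.99 in WT pools. Myl3, the ventricular and slow light chain, had 3.11, 3.04 and 3.02 in Tg pools and 2.97, 3.09 and 3.18 in WT pools. Myh7, the slow and ventricular myosin, had 4.62, 4.50 and 3.33 in Tg pools, against 3.54, 4.03 and 4.34 in WT pools (0.18 ± 0.21, adjusted p = 0.762). In these 3 genes the Tg and WT pools overlapped. Myl7, an atrial light chain, did not pass either (0.41 ± 0.22, adjusted p = 0.363). Its Tg pools 1 and 3 lay above every WT pool, and Tg pool 2 lay below every WT pool. Tnni3, a troponin gene of heart, had a difference below 0 that did not pass (-0.27 ± 0.31, adjusted p = 0.76). All of these uncalled genes were named after their values were seen. The part of heart tissue in the muscle result was not tested.

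Genes of muscle formation and of the nerve-muscle synapse did not pass the test. Of 17 such genes 0 were called higher and 0 lower (limma), with a median difference of 0.07. The list mixes regulators such as Myod1 with acetylcholine receptor subunits of muscle fibres, so it does not stand for precursor cells alone. Over all features 2.74% were called higher and 1.59% lower. Myod1, which commits cells to muscle, had 2.80, 2.78 and 2.70 in Tg pools and 2.76, 2.62 and 2.69 in WT pools. Myog, which drives fibre formation, had 2.75, 2.95 and 3.30 in Tg pools and 2.68, 2.77 and 2.80 in WT pools (0.25 ± 0.12, adjusted p = 0.259). Both lay under the array medians on all 6 pools, and both were named after their values were seen. Of 14 smooth muscle genes 2 were called higher (14.3%, against 2.74% of all features), Mylk by 0.81 and Myh11 by 0.56. Acta2, the smooth muscle actin, had 8.06, 4.25 and 7.92 in Tg pools and 3.98, 3.87 and 7.13 in WT pools (adjusted p = 0.138).

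Outside all lists, the 6 features whose pattern over the 36 arrays was most like the mean of the 39 genes were Hspb7, Hmcn1, Pdlim3, Bmp5, Tlcd4 and Col12a1. Their Pearson correlations with that mean ran from 0.973 for Hspb7 to 0.912 for Col12a1, over 36 arrays in which 3 Tg pools carry most of the range, and are given as a description. Hspb7, a small heat shock protein of heart and muscle, had 5.46, 5.30 and 4.78 in Tg pools, against 2.58, 2.88 and 3.03 in WT pools. Pdlim3, a Z-disc protein, had 6.24, 6.39 and 5.18 in Tg pools and 3.07, 4.18 and 3.92 in WT pools. Both were above WT in every Tg pool, and Hspb7 did not exceed 3.33 on the 30 later arrays. Hmcn1 had 4.43, 3.75 and 4.04 in Tg pools and 3.09, 2.93 and 2.96 in WT pools. Col12a1 had 5.64, 4.04 and 5.02 in Tg pools and 3.78, 3.70 and 3.42 in WT pools. Among the Tg pools Hmcn1, Col12a1 and Tlcd4 were lowest in pool 2, and Hspb7, Pdlim3 and Bmp5 in pool 3.

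In Tg mice the muscle transcripts were much lower 3 days after birth. Between these ages 33 of the 39 genes fell in Tg mice and 0 rose, where 14.0% of all features were called lower and 16.0% higher at PND 3, and the median of PND 3 minus PND 0 was -1.28 against 0.04 over all features. In 29 genes every PND 3 pool lay below every PND 0 pool, which held for 13.4% of all features. The fall was not particular to the muscle genes. In Tg mice 17 of the 18 fibroblast genes (median -3.13) and 12 of the 12 epithelial genes (median -4.06) were called lower too. Of the 20 macrophage genes 12 were called higher and 4 lower. Of the 39 genes, those that did not pass were Tnni2, Myh4, Mybpc2, Ryr1, Cacna1s and Mb. Acta1 had 3.38 ± 0.14 at PND 3 (SD, n = 4) and 9.13 ± 0.68 at PND 0 (SD, n = 3) in Tg mice, a difference of -5.75 ± 0.23 (SE, adjusted p = 2.39e-18). Tnnc2 had 3.05 ± 0.10 at PND 3 and 8.03 ± 0.56 at PND 0 (-4.98 ± 0.19, adjusted p = 9e-19). Without any 1 of the 7 pools, between 28 and 34 genes were called lower.

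In WT mice 1 gene fell and 1 rose over the same interval, where 12.0% of all features were called lower and 14.0% higher. Of the 18 fibroblast genes 12 were called lower in WT mice, and of the 12 epithelial genes 12 were. Acta1 had 3.31 ± 0.13 at PND 3 and 4.43 ± 0.71 at PND 0, a fall of 1.12 on the log2 scale (SE 0.23, adjusted p = 0.000264). In WT pools of PND 0 its values of 3.62, 4.72 and 4.95 lay, for pools 2 and 3, above the highest of the 30 later arrays (3.69). Actc1 in WT pool 3 (5.23) and Tnnt3 in WT pool 3 (4.94) also lay above all later arrays (4.02 and 4.23), but neither fell in the test (adjusted p = 0.225 and 0.180). In all, 19 of the 39 genes had at least 1 WT pool above all 30 later arrays, against 37 with at least 1 Tg pool. These counts are given without a share over all features and describe only the 39 genes. Without WT pool 2 of PND 0, 5 genes were called in WT mice, 4 of them lower, and with every array centred on its median 5 were called, 4 of them higher.

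Tnni2 did not follow the other genes. In WT mice it had 6.48 ± 0.33 at PND 3 (SD, n = 4) and 4.20 ± 0.29 at PND 0 (SD, n = 3), a rise of 2.28 ± 0.25 (SE, limma adjusted p = 2.55e-08). In Tg mice it had 6.13 ± 0.07 at PND 3 and 6.60 ± 0.86 at PND 0, and the difference of -0.46 ± 0.25 did not pass (adjusted p = 0.189). In the later groups its means stayed between 5.65 and 6.15 at PND 10 and 42. On chromosome 7, Tnni2 (142441816 to 142444410, GRCm38.p6) lies before Lsp1 (142458223 to 142494868), a gene of leukocytes, and Tnnt3 lies beyond Lsp1. Lsp1 had 8.29, 8.84 and 8.98 in Tg pools of PND 0 and 9.16, 8.97 and 8.84 in WT pools. At PND 3 its means were 9.58 in Tg and 9.83 in WT mice. Whether the neighbouring genes have a part in the Tnni2 values was not tested.

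The genotype difference at PND 0 exceeded that at PND 3 for 23 of the 39 genes by a test of the difference between the differences, and was smaller for 0. Over all features 1.58% were called larger and 1.69% smaller. The largest excess was that of Tnnc2, 4.93 ± 0.27 (adjusted p = 2.59e-13), and that of Acta1 was 4.63 ± 0.32 (adjusted p = 8.98e-11). Myh8 had 3.12 ± 0.45 (adjusted p = 0.000105). Tnni2 had 2.75 ± 0.36 (adjusted p = 3.57e-05), Tnnt3 3.83 ± 0.38 (adjusted p = 2.14e-07) and Ckm 2.78 ± 0.38 (adjusted p = 7.09e-05). Without any 1 of the 14 pools, 19 to 27 genes were called.

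At PND 3, 10 and 42 none of the 39 genes was called between Tg and WT mice in either direction (0 in each comparison). Over all features the share called was 4.05% at PND 3, 1.57% at PND 10, 4.49% in SPF mice of PND 42 and 4.91% in GF mice. An unadjusted p under 0.05 was reached by 0 of the 39 genes at PND 3, 0 at PND 10, 1 in SPF mice of PND 42 and 0 in GF mice, and the same model without moderated variances also called 0 in each. Median differences of the 39 genes were 0.01, 0.03, -0.02 and -0.03 in these comparisons. The mean over the 39 genes lay between 3.31 and 3.46 on all 30 later arrays, and the ranges of Tg and WT arrays overlapped at each age and in both housings.

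**Figure D3:**
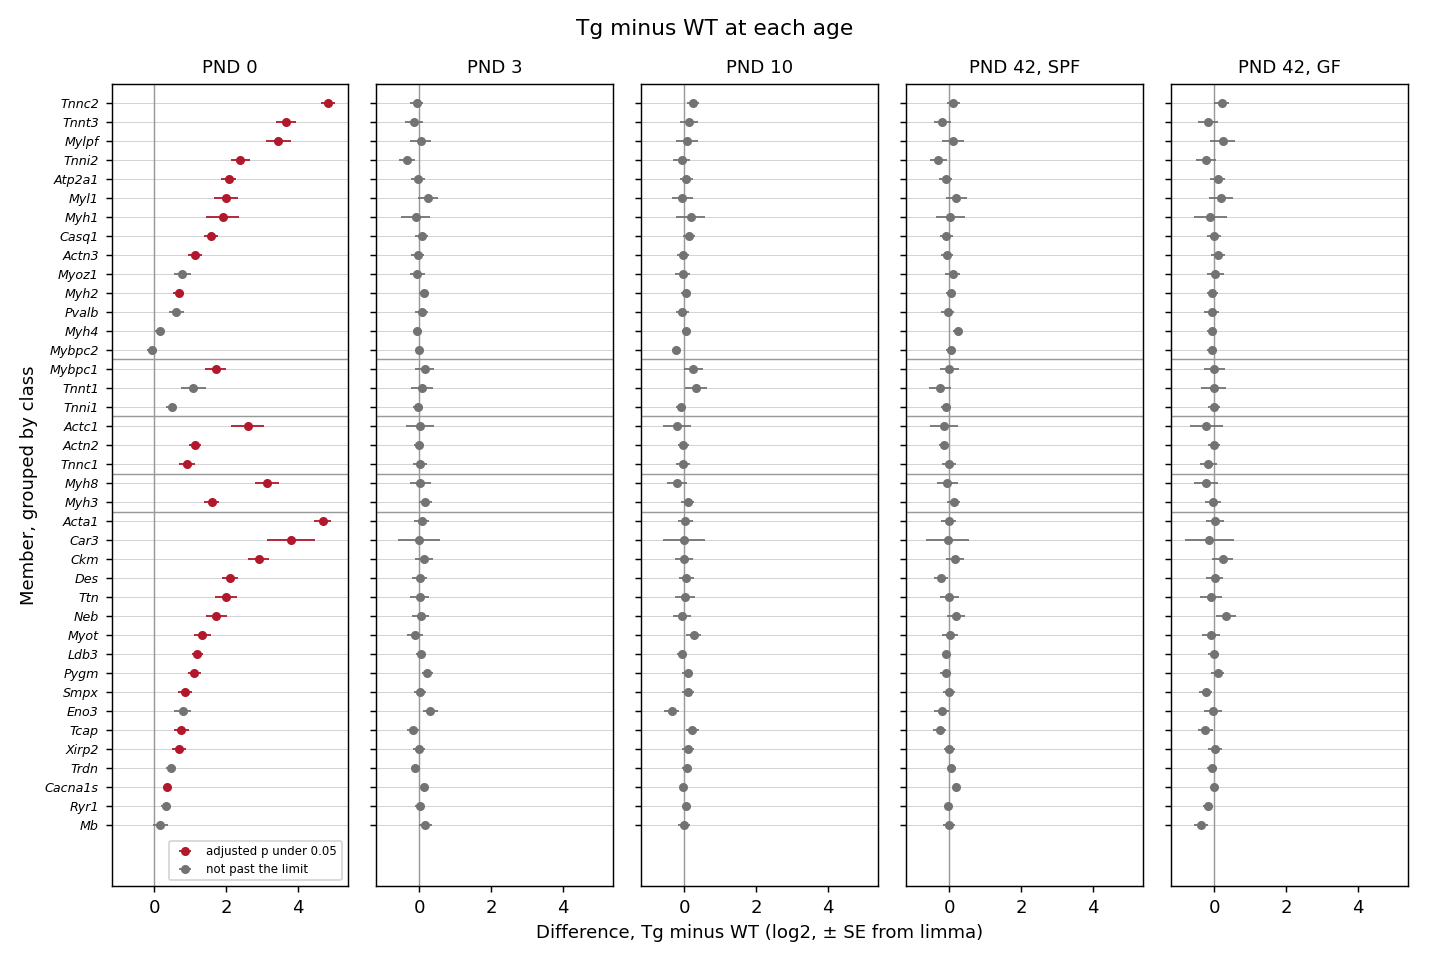
Difference between Tg and WT mice (log2, Tg minus WT, points, with SE from limma as bars) of the 39 genes at each age, in the order of the plot of the 6 pools. Red points passed the adjusted p of 0.05, 29 at PND 0 and 0 at each later age.

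**Figure D4:**
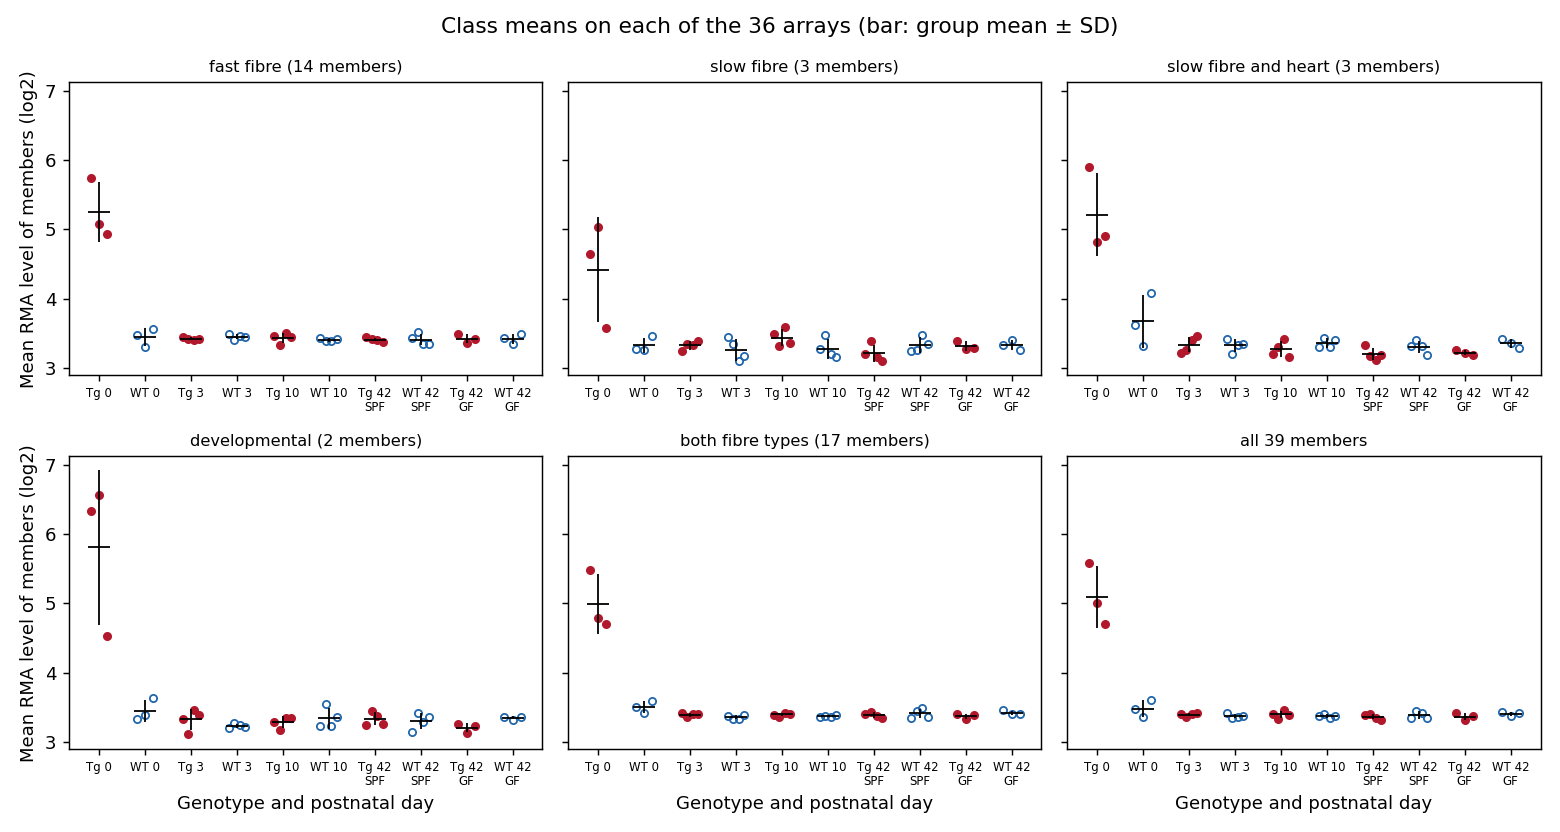
Mean RMA level (log2) of the genes of each class, and of all 39, on each of the 36 arrays, Tg filled and WT open, with the group mean and SD as bars. Tg pools of PND 0 stand above WT in all classes, though the slow-fibre mean of Tg pool 3 (3.57) is close to WT pool 3 (3.45), and all arrays from PND 3 on lie close together.

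Single genes show the same course. Tnnc2 had a median of 3.10 over the 30 later arrays (lowest 2.65, highest 3.39), below the lowest Tg pool of PND 0 (7.68). Myh8 had a median of 3.41 (lowest 3.16, highest 3.71) on later arrays. Ckm had a median of 3.39 (lowest 3.14, highest 3.96) and Car3 one of 2.98 (lowest 2.69, highest 3.25). For 20 of the 39 genes all 3 Tg pools of PND 0 lay above all 30 later arrays, and for no gene (0) did all 3 WT pools. No share over all features stands beside these counts, so they describe only the 39 genes. Against PND 3 alone, 13.4% of all features had every later Tg pool below every Tg pool of PND 0.

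**Figure D5:**
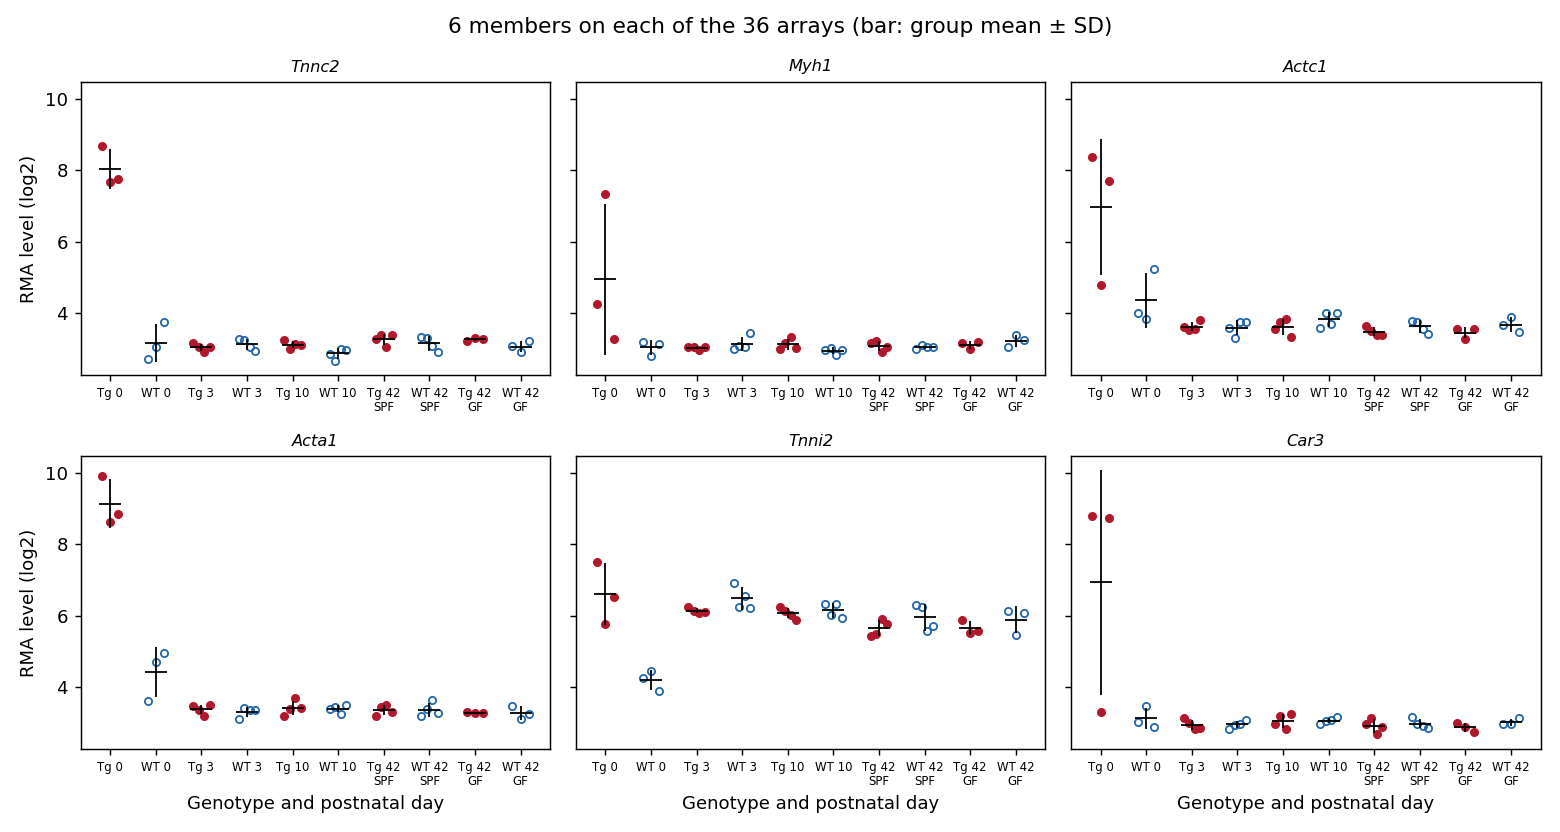
RMA level (log2) of Tnnc2, Myh1, Actc1, Acta1, Tnni2 and Car3 on each of the 36 arrays, Tg filled and WT open, with the group mean and SD as bars. Tnni2 stands near 6 in all later groups, unlike the other genes, and Car3 and Myh1 are bright in only some of the Tg pools of PND 0.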

How the data were processed

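RNA of lavage macrophages was amplified and measured on Affymetrix gene arrays (mouse, ST type). The values are log2 levels that the authors deposited after RMA (Partek 6.5, per the labels), which the methods describe as background adjustment, quantile normalization and median polish. Detection calls are not used here. All 36 arrays were mapped to 10 groups by title, and 0 columns were left unused. Of 35556 features, 6616 without annotation were left out, which left 28940, of which 21218 have 1 gene symbol, 1881 several and 5841 none. For Ckm, Trdn and Ttn, with several features, that of highest mean was used.

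Linear models were fitted in R 4.3.3 (limma 3.58.1), with a mean for each group over all 36 arrays, 8 contrasts, two-sided tests and Benjamini-Hochberg adjustment over all features. A gene was called at an adjusted p under 0.05. All 39 genes are named, from each other list at most the 6 called genes of largest difference at PND 0, and the 6 features most like the mean of the 39. The members and lists were chosen with earlier results of these data known. The fit was tested on simulated data. Alternatives were the variance model, weights, centring, filters, choice of feature, replicate block and leaving out arrays. Promoters came from RefSeq (GRCm38.p6). The number of arrays limits the precision.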

Additional observations from a re-analysis of the deposited data

Results flagged for a closer look

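In 15 of 234 groups of 4 arrays, a single array of a muscle gene stood far from the other 3, and chance alone gives about 1 in 20 such groups. Only groups of 4 arrays were screened, so the groups of PND 0 and of GF mice, with 3 arrays each, could not be flagged. The 15 therefore say nothing about the spread among pools of PND 0. They lie at levels (log2) close to background for most of the genes. At PND 3, Myh1 had 2.97 in Tg pool 3 (others 3.05 to 3.07) and Pygm had 4.07 in the same pool (others 3.38 to 3.48). In WT pools of PND 3, Tnnt3 had 3.97 in pool 4 (others 3.62 to 3.68), Ryr1 had 3.51 in pool 2 (others 3.33 to 3.36), Tcap had 3.96 in pool 1 (others 3.22 to 3.35) and Myot had 2.85 in pool 1 (others 3.03 to 3.04). At PND 10, Xirp2 had 3.41 in Tg pool 1 (others 2.97 to 3.02) and Myot had 2.74 in WT pool 3 (others 2.88 to 2.90). In Tg mice of PND 42 in SPF housing, Casq1 had 3.02 (others 2.92 to 2.93) and Trdn 5.30 (others 5.01 to 5.05) in mouse 1, and Tnnt1 had 4.18 (others 3.50) and Des 2.94 (others 2.76 to 2.78) in mouse 2. In WT mice of that age and housing, Tnnt1 had 4.21 in mouse 4 (others 3.81 to 3.88), and in mouse 3 Tnni1 had 3.34 (others 2.80 to 2.88) and Mybpc1 3.29 (others 2.99 to 3.03).

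The genotype difference at PND 0 was larger than that at PND 3 for 23 of the 39 genes in the limma test of the difference between them, with adjusted p from 2.59e-13 for Tnnc2 to 0.04999 for Tcap. Among thin-filament and Z-disc genes the excess (log2) was 4.93 for Tnnc2, 4.63 for Acta1, 3.83 for Tnnt3, 2.75 for Tnni2, 2.58 for Actc1, 1.46 for Myot, 1.19 for Actn3, 1.15 for Ldb3, 1.13 for Actn2 and 0.93 for Tcap. Among myosins and their partners it was 3.42 for Mylpf, 3.12 for Myh8, 1.75 for Myl1, 1.56 for Mybpc1 and 1.43 for Myh3. Among the remaining genes it was 3.82 for Car3, 2.78 for Ckm, 2.12 for Atp2a1, 2.10 for Des, 2.00 for Ttn, 1.70 for Neb, 1.51 for Casq1 and 0.88 for Pygm.

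Of 21 further features that carry the symbol of one of the 39 genes and were not used above, 3 were higher in Tg pools of PND 0. Over all features 2.74% were. A second Ckm feature was higher by 1.35 (limma adjusted p = 0.000226) and a second Ttn feature by 1.90 (adjusted p = 1.27e-05). A feature annotated to both Ube2c, a mitotic ubiquitin-conjugating enzyme, and Tnnc2, which are neighbours on chromosome 2, was higher by 1.09 (adjusted p = 0.0253).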

How the results depend on the processing

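At PND 0, 29 of the 39 genes were called, against 0 with the 6 arrays of PND 0 alone and 5 of the 8 genes left once dim features were dropped, where the median difference was 2.50. That filter goes by the mean over all 36 arrays, to which high Tg values of PND 0 contribute, so that the selection raises this median. The excess over PND 3, called in 23 genes, was called in 5 in each of these settings, and the fall to PND 3 in Tg mice in 7 of the 8 kept genes, against 33. Weights by group variance gave 23 genes at PND 0, array weights 22 and median centring 27. With weights by group variance 1.52% of all features were called in either direction, against 4.33% in the main fit. In WT mice 5 genes were called between PND 3 and PND 0 with median centring, against 2. Leaving out 1 array at a time gave 25 to 33 genes at PND 0 (25 without WT pool 2, 33 without Tg pool 3), a median of 1.10 to 1.53, 28 to 34 genes between PND 3 and PND 0 in Tg mice, 2 to 5 in WT mice, 19 to 27 for the excess and 0 in each later genotype comparison. Of the 29 genes, 23 kept their call without any 1 PND 0 array. The sign turned in 5 genes. For PND 3 minus PND 0 in Tg mice these were Mybpc2 (0.0071) and Cacna1s (0.0924) with median centring, Trdn (0.0028) with its feature of lowest mean, Mb (0.0515 without Tg pool 1, to -0.55 without Tg pool 3) and Ryr1 (0.0149 without Tg pool 2, to -0.44 without Tg pool 3). For Tg minus WT at PND 0 they were Mybpc2 (0.0332) without WT pool 1 and Mb (-0.18 without Tg pool 1, to 0.42 without Tg pool 3). The cause was not tested, except that the dim filter leaves fewer genes and the PND 0 arrays alone fewer samples. Replicate numbers did not pair the samples (1 of 18 same-number correlations over 0.1, from -0.13 to 0.24), and with a replicate block 29 genes were called at PND 0, 33 and 2 between PND 3 and PND 0 in Tg and WT mice, and 22 for the excess.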
